A study of Mus musculus with 8 samples.

Results

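The genes described here are 46 genes of the G1/S transition and DNA replication, taken from the 17167 listed genes by their symbols: 4 licensing genes, 12 helicase genes, 7 polymerase genes, 7 clamp and clamp loader genes, 3 genes for single-stranded DNA (ssDNA) binding, 3 for nucleotide supply, 3 for strand joining and uracil repair, 4 for chromatin assembly and histone mRNA, the checkpoint adaptor Clspn, and 2 E2F genes. They were read in cultured undifferentiated spermatogonia (Aundiff), the testis cells that include the spermatogonial stem cells, after exposure to AGX51, an inhibitor of the ID proteins. ID proteins bind E proteins and keep these transcription factors from binding DNA. Aundiff were enriched by CD9 from adult wild-type mouse testes and expanded on mitotically inactivated mouse embryonic fibroblast feeders with GDNF, FGF and EGF. Feeders were then depleted by attachment and the cells were plated on a basement membrane matrix.

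The 2 groups were AGX51 at 80 µM for 20 h and vehicle (DMSO) for 20 h, and all mice were wild type. The labels write the dose in mM and give the strain as CBA/J, while the supplemental procedures name C57BL/6J. Each of 4 cultures from separate mice gave 1 AGX51 and 1 vehicle library, so n = 4 per group throughout. The AGX51 libraries held 4303318 to 8441399 counts, against 8330176 to 9586105 in vehicle libraries, and the AGX51 total was lower in 4 of 4 cultures. By a two-sided exact permutation test that ignores the pairing, p was 0.0571, and with 4 against 4 libraries it cannot go under 0.0286. Within cultures, p was 0.125 by a two-sided exact sign-flip permutation test, the smallest p that 4 pairs allow. Levels are given as CPM, the count scaled to a common total of 1e6 per library. Reverse transcription started from the poly(A) tail, so CPM values are compared between libraries and not between genes. Of the 16 spermatogonial and germ cell markers, all were detected and tested, with summed levels of 992 to 1419 CPM in AGX51 libraries and 1824 to 2250 CPM in vehicle libraries. With AGX51, 6 of those markers were called lower, where 9.93% of all tested genes were. Bcl6b had the lowest log2 fold change (-2.33) and Dnd1 the highest (0.04). The study reported Sall4 and Ddx4, which are in this list, as unaltered. In bulk RNA, fewer cells of a type and less RNA per cell cannot be told apart.

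A dividing cell copies its DNA once per cycle, with loading and firing of the machinery split in time. In G1, the origin recognition complex (ORC) with CDC6 and CDT1 loads the MCM2-7 ring onto DNA. At the G1/S transition, CDC45 and GINS join the ring to form the active helicase, and polymerases, the sliding clamp PCNA and its loader RFC follow. Many genes of this machinery are targets of E2F factors, which the RB family holds in check. Spermatogonia in culture divide and depend on growth factor signalling for it.

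With AGX51, part of the replication machinery was lower, and the genes that fell belonged to 7 of the 10 role groups. Of the 45 tested members, 12 were called lower (26.7%) and 0 higher, where 9.93% of all 14428 tested genes were called lower and 8.57% higher. A call required an adjusted p under 0.05 (edgeR's quasi-likelihood test, Benjamini-Hochberg over all tested genes) and a fold change above 1.5. DESeq2 and limma-voom also called 0 members higher, and 3 members were higher at an unadjusted p under 0.05 in edgeR. The called genes were Dscc1, Rrm2, Uhrf1, Pcna, Cdc6, Gins1, Rpa3, Ung, Mcm10, Gins3, Rfc3 and Slbp. With the mean of 22 fibroblast markers as a covariate, 4 of the 45 were called lower, where 9.09% of all tested genes were. Without that covariate, 21 members were lower and 2 higher at an adjusted p under 0.05 with any fold. Of all tested genes, 15.3% were lower and 15.2% higher at that threshold. With culture as a block in edgeR, which uses the pairing of libraries, 27 members were lower at any fold, against 22% of all tested genes, and the same 2 were higher. The median log2 fold change of the tested members was -0.30, with 36 below 0 and 9 above it, and that of all tested genes was 0.0006. Within the cultures, the members' median log2 ratio was -0.33, -0.17, -0.28 and -0.46 in cultures 1 to 4, with 35, 32, 33 and 38 of 45 members lower. In TMM-scaled CPM, every AGX51 library lay below every vehicle library for 18 members and above for 2, where 15.5% and 14.8% of tested genes did so. In 4 of 4 cultures 28 members were lower and 4 higher, against 27.1% of all tested genes lower and another 27.1% higher. The clamp group had the largest called count beside the helicase group, 3 of 7 and 3 of 12, while no polymerase member was called. The median log2 fold change was -0.47 over the 3 nucleotide supply genes (the value of Tyms) and -0.40 over the 7 clamp genes. It was -0.31 over the 12 helicase genes and -0.16 over the 7 polymerase genes, and the groups were not tested against each other. Over genes outside the members, the median was -0.12 for 9 others of nucleotide supply and -0.07 for 8 others of polymerase and clamp.

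**Figure D1:**
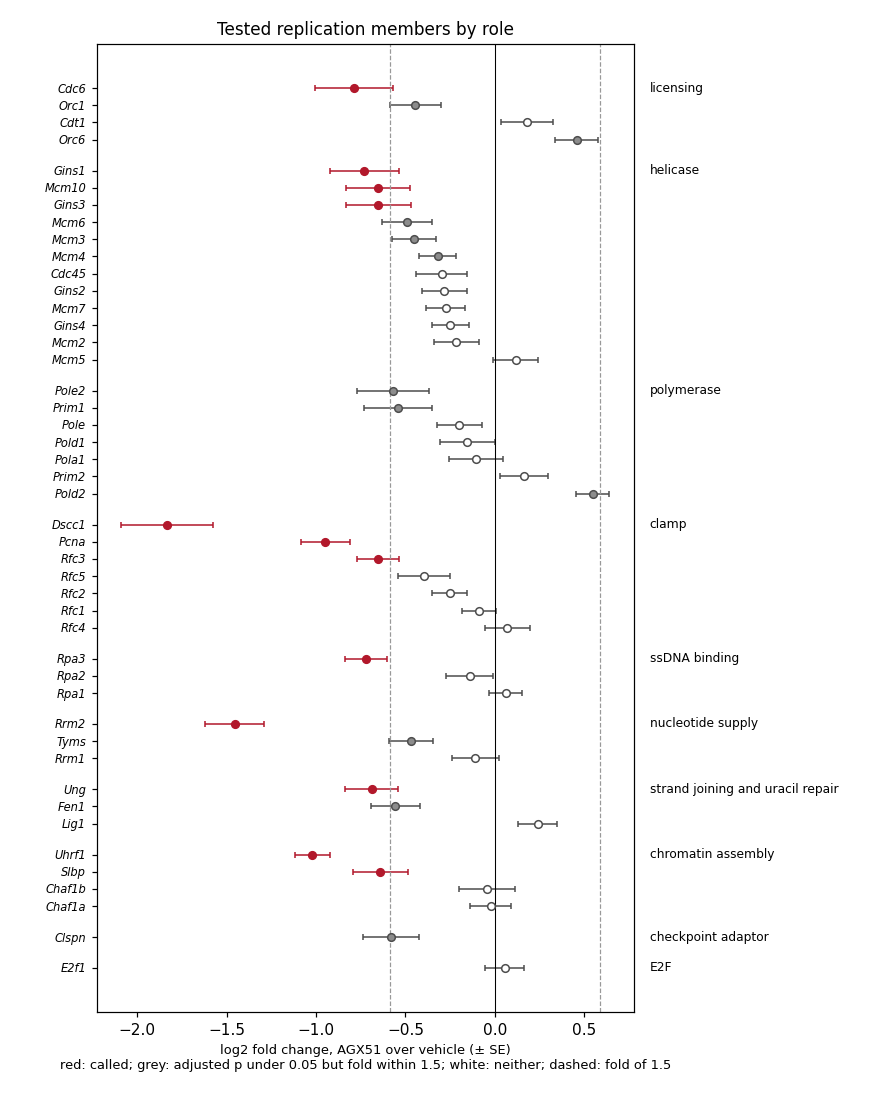
Log2 fold change (AGX51 over vehicle) with its standard error (SE) for the 45 tested members, ordered within each role, n = 4 libraries per group. The 12 red points passed both thresholds and all lie left of 0, and Pold2 and Orc6 lie furthest to the right.

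Markers of fibroblasts moved with the treatment. Of 22 fibroblast markers, 10 were called higher, where 8.57% of all tested genes were, with a median log2 fold change of 0.585, and no marker was absent. Their summed level was 9675 to 17060 CPM in AGX51 libraries and 7199 to 18740 CPM in vehicle libraries. The mean log2 CPM of the 22 markers was 7.13 ± 0.395 in AGX51 libraries and 6.65 ± 0.302 in vehicle libraries (SD, n = 4 each), higher in 4 of 4 cultures (p = 0.114 by the same exact test, which ignores the pairing). Within cultures the difference was 0.399 to 0.620 log2 units (p = 0.125 by a two-sided exact sign-flip permutation test, the smallest p that 4 pairs allow). Among the called markers were Sparc (0.83) and Fn1 (0.79), and the range of all ran between -0.45 for Thbs1 and 1.06 for Col6a2. With this mean as a covariate, 4 members were called lower, namely Dscc1 (-1.50), Rrm2 (-1.34), Uhrf1 (-0.88) and Pcna (-0.77), where 9.09% of tested genes were, and the members' median became -0.15. The other 8 called members then had log2 fold changes between -0.68 for Cdc6 and -0.30 for Mcm10, where those without the covariate lay between -0.79 for Cdc6 and -0.64 for Slbp. Ung was at -0.38 with the covariate and -0.69 without it, and Gins1 at -0.42 with it and -0.73 without it. With the covariate in edgeR, Rpa3 (adjusted p = 0.0031), Rfc3 (adjusted p = 0.0085) and Ung (adjusted p = 0.018) passed the adjusted p and missed only the fold. Cdc6, Gins1, Gins3, Mcm10 and Slbp did not pass the adjusted p. In the higher direction, Orc6 and Pold2 passed the adjusted p with and without the covariate, within the fold limit. Cdt1, Prim2, Lig1 and Rfc4 did so only with it (adjusted p between 0.016 for Prim2 and 0.047 for Rfc4 in edgeR). The median of the polymerase group became 0.06, against -0.16 without the covariate. Without vehicle library 1, 7 members were called lower (Cdc6, Gins3, Mcm10, Rfc3 and Slbp were lost), where 8.33% of all tested genes were.

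**Figure D2:**
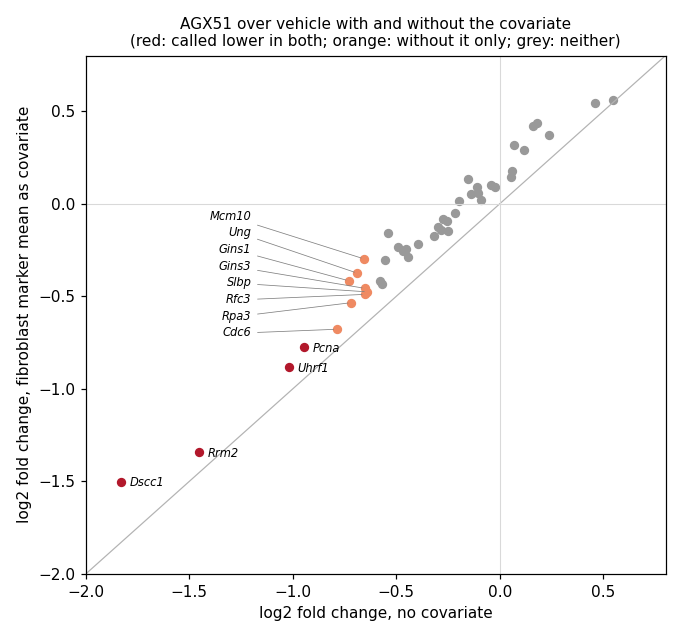
Log2 fold change (AGX51 over vehicle) of the 45 tested members without a covariate (x axis) and with the mean log2 CPM of 22 fibroblast markers as a covariate (y axis), with the line of equal values. Every point lies above the line, and Dscc1, Rrm2, Uhrf1 and Pcna stay called.

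Promoter sequences are shown for 2 pairs of partner genes of which only one was called, and for Mcm6, which with Mcm3 held the most E2F cores. RefSeq promoter windows (GRCm38.p6, 250 bases before to 50 after the start) were found for 38 members. The 8 without one were Dscc1 and Gins1, both called lower, and Pole, Mcm4, Gins2, Rfc2, Prim2 and Gins4, which were not called. E2F cores (TTTCGCGC, TTTGGCGC, TTCCCGCC or TTTCCCGC, either strand) and the box CCAAT (either strand) are in capitals, and neighbouring cores can overlap. Rrm2 and Rfc3 were called lower, and Rrm1, Rfc4 and Mcm6 were not. The windows are chr12:24708004-24708303 (plus strand) for Rrm2, chr7:102441445-102441744 (plus strand) for Rrm1, chr5:151651159-151651458 (minus strand) for Rfc3, chr16:23127681-23127980 (minus strand) for Rfc4 and chr1:128359656-128359955 (minus strand) for Mcm6.
Rrm2: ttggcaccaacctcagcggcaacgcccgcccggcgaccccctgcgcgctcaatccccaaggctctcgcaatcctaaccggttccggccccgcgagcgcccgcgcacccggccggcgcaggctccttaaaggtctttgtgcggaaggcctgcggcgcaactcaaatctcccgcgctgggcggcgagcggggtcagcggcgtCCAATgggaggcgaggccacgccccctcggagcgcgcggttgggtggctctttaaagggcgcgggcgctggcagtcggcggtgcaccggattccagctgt
Rrm1: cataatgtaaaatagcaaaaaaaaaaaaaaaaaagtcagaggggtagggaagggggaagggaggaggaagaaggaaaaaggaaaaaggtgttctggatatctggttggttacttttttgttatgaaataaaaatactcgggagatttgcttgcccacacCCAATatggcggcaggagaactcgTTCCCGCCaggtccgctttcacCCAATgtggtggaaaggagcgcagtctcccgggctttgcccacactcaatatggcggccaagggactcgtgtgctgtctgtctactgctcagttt
Rfc3: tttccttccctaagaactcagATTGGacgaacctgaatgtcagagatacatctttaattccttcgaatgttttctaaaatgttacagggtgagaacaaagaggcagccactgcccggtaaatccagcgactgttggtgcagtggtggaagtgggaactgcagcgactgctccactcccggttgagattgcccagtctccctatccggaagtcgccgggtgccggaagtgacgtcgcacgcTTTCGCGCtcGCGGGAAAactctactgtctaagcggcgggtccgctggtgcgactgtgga
Rfc4: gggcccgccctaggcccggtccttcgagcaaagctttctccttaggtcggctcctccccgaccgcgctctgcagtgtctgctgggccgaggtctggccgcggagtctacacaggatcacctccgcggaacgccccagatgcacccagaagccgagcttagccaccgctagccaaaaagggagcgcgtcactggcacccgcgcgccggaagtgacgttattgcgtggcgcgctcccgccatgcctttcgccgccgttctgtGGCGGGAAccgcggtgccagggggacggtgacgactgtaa
Mcm6: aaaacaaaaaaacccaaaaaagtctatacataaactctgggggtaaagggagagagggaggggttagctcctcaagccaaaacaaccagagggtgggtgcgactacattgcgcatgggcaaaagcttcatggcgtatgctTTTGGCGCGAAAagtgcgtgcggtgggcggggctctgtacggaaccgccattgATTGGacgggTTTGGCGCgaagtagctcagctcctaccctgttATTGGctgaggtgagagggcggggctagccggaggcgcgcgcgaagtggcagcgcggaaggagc

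The 38 members had 45 windows, and a gene was counted as holding a motif if any of its windows did. An E2F core was held by 20 of the 38 members, against 7.64% of the 10517 tested genes with a window. Among called members it was held by 4 of 10, and among members tested and not called by 15 of 27. Rrm2, with a large fall, held none of these 4 spellings and 1 CCAAT box, while Rrm1 held an E2F core and 2 CCAAT boxes. Rfc3 held 2 E2F cores next to its start, and Rfc4 held 1. Mcm6 held 3 E2F cores, 2 of them overlapping. CCAAT was held by 26 of 38 members (8 of 10 called, 17 of 27 tested and not called), against 43.1% of tested genes. The E box CANNTG, the core that E proteins read, was held by 28 of 38 members, against 67.3% of tested genes, with 8 of 10 called and 19 of 27 tested and not called. The cell cycle element TTTGAA was held by 6 of 38 members, against 13.9%, and TGANGCAA, a core of ATF factors, in 1 of 38, against 3.51%. A match is a stretch of letters and was not tested for binding.

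Nucleotide supply held one of the steepest falls and one of the flattest genes. Ribonucleotide reductase makes deoxyribonucleotides from a large subunit, RRM1, and a small subunit, RRM2, whose level is known to peak in S phase. Rrm2 (ENSMUSG00000020649, chr12:24708241-24714146, GRCm38) had 19.5, 14.4, 15.2 and 15.9 CPM in AGX51 libraries 1 to 4, against 59.9, 36.9, 45.01 and 46.2 CPM in vehicle libraries 1 to 4. The groups were far apart, and Rrm2 fell 2.74-fold (log2 fold change -1.45, SE 0.17, adjusted p = 6.69e-05). Rrm1 had 157, 127, 144 and 101 CPM in AGX51 libraries, against 172, 136, 148 and 144 CPM in vehicle libraries, so that the groups overlapped (log2 fold change -0.11, SE 0.13, adjusted p = 0.56). Tyms, which makes thymidylate, had 55.8, 56.7, 50.3 and 39.3 CPM in AGX51 libraries and 86.9, 69.7, 68.4 and 66.7 CPM in vehicle libraries. Its groups did not overlap, and it passed the adjusted p but not the fold (log2 fold change -0.47, SE 0.12, adjusted p = 0.013).

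The clamp group held the steepest fall of all members. Dscc1 encodes a subunit of an alternative clamp loader that acts in sister chromatid cohesion. Dscc1 (ENSMUSG00000022422, chr15:55076099-55090491) had 3.63, 5.81, 5.38 and 2.61 CPM in AGX51 libraries, against 21.4, 12.2, 15.9 and 14.3 CPM in vehicle libraries, a 3.56-fold fall (log2 fold change -1.83, SE 0.26, adjusted p = 0.000243). The highest AGX51 library was still under the lowest vehicle library, and the within-culture log2 ratios ran between -2.42 and -1.03. Pcna, the ring that tethers polymerases to DNA (ENSMUSG00000027342, chr2:132249162-132253314), had 41.0, 37.2, 39.9 and 34.9 CPM in AGX51 libraries and 98.4, 66.5, 78.0 and 67.9 CPM in vehicle libraries. The AGX51 libraries were tightly grouped below all vehicle libraries, and Pcna fell 1.93-fold (log2 fold change -0.95, SE 0.14, adjusted p = 0.000279). A Pcna pseudogene is also listed in the count table, so reads may have been split between them. Rfc3, a small subunit of the loader that opens PCNA, had 68.7, 64.8, 62.0 and 55.2 CPM in AGX51 libraries, against 115, 87.5, 122 and 89.3 CPM in vehicle libraries (log2 fold change -0.65, SE 0.12, adjusted p = 0.00129). The other loader subunits did not pass: log2 fold changes were -0.40 for Rfc5, -0.25 for Rfc2, -0.09 for Rfc1 and 0.07 for Rfc4. With the culture block, Rfc5 (adjusted p = 0.00062) and Rfc2 (adjusted p = 0.0083) passed the adjusted p in edgeR, within the fold limit.

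**Figure D3:**
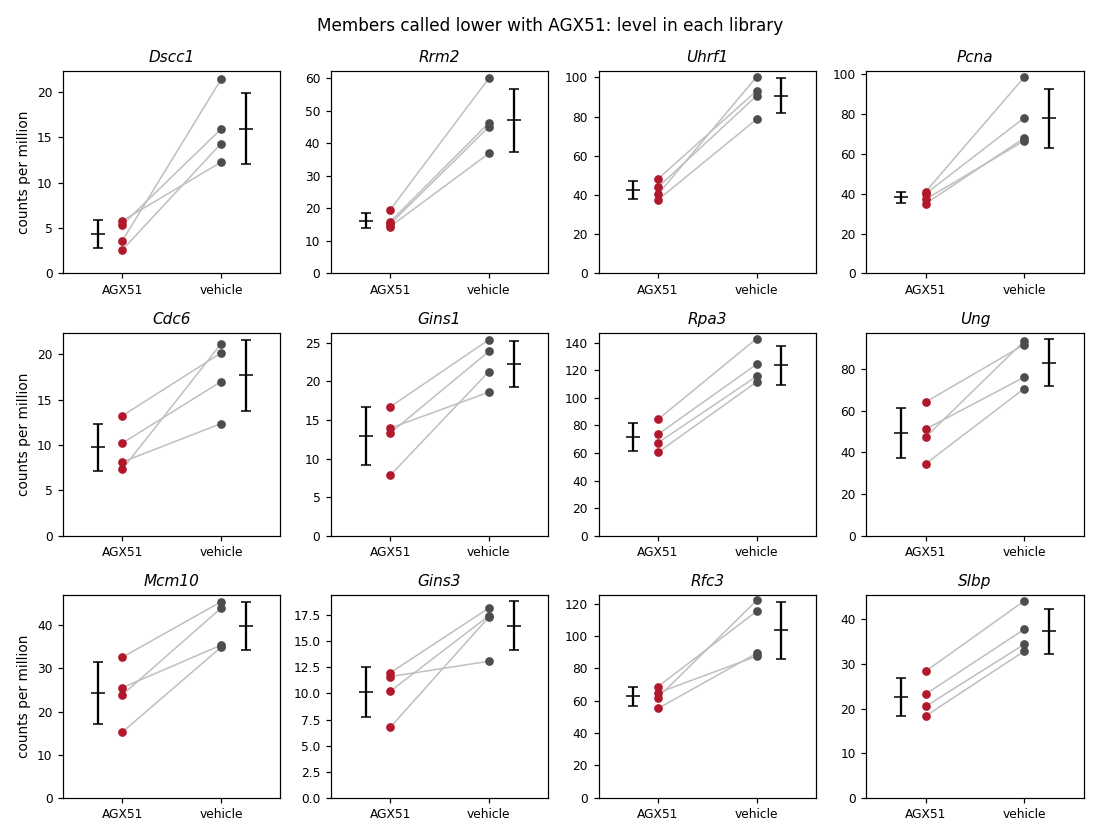
CPM in each library for the 12 members called lower, AGX51 (red) left and vehicle (grey) right, with lines joining libraries of one culture and bars for the mean ± SD of 4 libraries. Each line falls toward AGX51, and Cdc6 is the one gene whose groups overlap.

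Among ssDNA binding genes, the smallest subunit of replication protein A (RPA) was called and the other two were not. RPA is a trimer that coats ssDNA. Rpa3 had 84.3, 67.4, 73.5 and 60.4 CPM in AGX51 libraries and 143, 116, 124 and 112 CPM in vehicle libraries. These groups did not overlap, and Rpa3 fell 1.65-fold (log2 fold change -0.72, SE 0.12, adjusted p = 0.000689). The log2 fold changes of Rpa1 and Rpa2 were 0.06 and -0.14, neither past the test.

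Of the licensing genes, Cdc6 was called. Cdc6, the ATPase that loads MCM with ORC, had 13.2, 8.13, 10.2 and 7.35 CPM in AGX51 libraries, against 20.2, 12.4, 17.0 and 21.2 CPM in vehicle libraries. It was lower in 4 of 4 cultures although AGX51 library 1 lay above vehicle library 2, and it was called (log2 fold change -0.79, SE 0.22, adjusted p = 0.0156). Cdt1, its loading partner, had 50.6, 63.2, 45.96 and 32.2 CPM in AGX51 libraries and 44.6, 45.1, 48.7 and 37.9 CPM in vehicle libraries, with overlap (log2 fold change 0.18, SE 0.15, adjusted p = 0.38). Orc1, an ATPase subunit of ORC, had a log2 fold change of -0.45 at an adjusted p of 0.030, and Orc6 one of 0.46 at an adjusted p of 0.012, both within the fold limit. Orc1 and Orc6 share exon bases with genes on the opposite strand that are also in the count table (Gm12743 and Vps35), and the sources used here do not state whether counting used strand. The same holds for Cdc45, Mcm7, Gins2, Rfc2, Rfc4, Rfc5, Chaf1a, Lig1 and Fen1. The longest of these overlaps were in Chaf1a (4648 bases), Gins2 (2758 bases, with Gse1) and Fen1 (1909 bases).

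The differences of the helicase group were small and mostly below 0. Its median log2 fold change was -0.31, 11 of its 12 genes were below 0 and lower in 4 of 4 cultures, and 3 were called. Mcm2 had 126, 97.4, 107 and 91.8 CPM in AGX51 libraries and 149, 108, 140 and 118 CPM in vehicle libraries (log2 fold change -0.22, adjusted p = 0.21). Mcm3 had 87.6, 98.3, 74.2 and 62.5 CPM in AGX51 libraries and 128, 99.2, 131 and 103 CPM in vehicle libraries (log2 fold change -0.45, adjusted p = 0.014). Mcm4 had 97.7, 87.8, 76.1 and 69.3 CPM in AGX51 libraries and 117, 95.9, 116 and 103 CPM in vehicle libraries (log2 fold change -0.32, adjusted p = 0.034). So Mcm3 and Mcm4 passed the adjusted p within the fold limit, and Mcm2 did not unless culture was a block (adjusted p = 0.0226 in edgeR). Mcm5 had 94.4, 75.1, 93.3 and 68.5 CPM in AGX51 libraries and 84.7, 73.8, 93.6 and 70.9 CPM in vehicle libraries (log2 fold change 0.12, adjusted p = 0.53). Mcm6 had 122, 99.2, 111 and 79.0 CPM in AGX51 libraries and 183, 136, 156 and 132 CPM in vehicle libraries (log2 fold change -0.49, adjusted p = 0.018). Mcm7 had 119, 109, 99.0 and 83.6 CPM in AGX51 libraries and 146, 121, 137 and 117 CPM in vehicle libraries (log2 fold change -0.28, adjusted p = 0.071, or 0.0051 with the culture block in edgeR). The 6 subunits sit in one ring with 1 copy of each, yet Mcm6 groups were separate while Mcm5 groups lay on top of each other.

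Among the genes that turn the ring into a moving helicase, 3 were called lower. Gins1 had 16.7, 13.9, 13.3 and 7.82 CPM in AGX51 libraries and 25.4, 18.6, 23.9 and 21.3 CPM in vehicle libraries (log2 fold change -0.73, SE 0.19, adjusted p = 0.0125). Gins3 had 12.0, 11.6, 10.2 and 6.75 CPM in AGX51 libraries and 18.2, 13.1, 17.5 and 17.3 CPM in vehicle libraries (log2 fold change -0.65, SE 0.18, adjusted p = 0.0172). Mcm10, which helps activate the loaded helicase, had 32.6, 25.6, 23.9 and 15.3 CPM in AGX51 libraries and 45.5, 35.4, 44.0 and 34.9 CPM in vehicle libraries (log2 fold change -0.66, SE 0.18, adjusted p = 0.0145). In all 3 genes the groups did not overlap and AGX51 library 4 was the lowest. That library also had the highest fibroblast marker mean of the 8 libraries (7.69 log2 CPM) and the lowest summed germ cell markers (992 CPM). A link between these values was not tested. Without AGX51 library 4, 9 members were called lower, where 9.42% of all tested genes were, and Gins1, Gins3, Mcm10 and Ung lost their calls. Without culture 3 or culture 4, 9 members were called lower each time, where 6.96% and 9.37% of all tested genes were. Cdc6, Gins1, Gins3 and Mcm10 lost their calls in both cases, and at equal depth Gins3 and Mcm10 did. The log2 fold changes of Gins2, Gins4 and Cdc45 were -0.28, -0.25 and -0.30, and none passed the test. With the culture block, Gins4 (adjusted p = 0.0079) and Cdc45 (adjusted p = 0.0193) passed the adjusted p in edgeR, within the fold limit.

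No polymerase gene was called, and the group held the highest value of all members. Pola1, the catalytic subunit of the polymerase that starts each strand, had 31.8, 35.1, 33.3 and 21.3 CPM in AGX51 libraries and 36.9, 27.9, 36.6 and 35.3 CPM in vehicle libraries (log2 fold change -0.11, SE 0.15, adjusted p = 0.63). Pole2, an accessory subunit of polymerase epsilon, had 6.78, 6.27, 5.38 and 3.79 CPM in AGX51 libraries and 8.22, 7.20, 9.45 and 9.28 CPM in vehicle libraries. Its groups did not overlap, and its log2 fold change of -0.57 (adjusted p = 0.048) was within the fold limit here but past it in limma-voom. Pold2, an accessory subunit of polymerase delta, had 70.8, 77.6, 64.4 and 63.4 CPM in AGX51 libraries and 46.6, 56.1, 48.2 and 47.5 CPM in vehicle libraries. Every AGX51 library lay above every vehicle library (log2 fold change 0.55, SE 0.09, adjusted p = 0.000839), at a fold of 1.46. The log2 fold changes of the other 4 genes lay between -0.54 for Prim1 (adjusted p = 0.046) and 0.16 for Prim2.

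Genes for chromatin and for strand joining were split in the same way. Uhrf1, which guides DNA methylation onto new strands (ENSMUSG00000001228, chr17:56303321-56323486), had 48.2, 43.9, 40.3 and 37.6 CPM in AGX51 libraries and 93.1, 90.6, 100.3 and 78.7 CPM in vehicle libraries. The fall was alike in the 4 cultures, with log2 ratios between -1.09 and -0.95 (log2 fold change -1.02, SE 0.10, adjusted p = 2.14e-05, 2.03-fold lower). Slbp, which binds the stem loop of histone mRNAs, had 28.4, 18.4, 23.3 and 20.5 CPM in AGX51 libraries and 44.2, 32.9, 37.8 and 34.4 CPM in vehicle libraries (log2 fold change -0.64, SE 0.16, adjusted p = 0.0077). The 2 chromatin assembly factor genes Chaf1a and Chaf1b had log2 fold changes of -0.02 and -0.05 and did not pass. Over 4648 of its exon bases, Chaf1a lies opposite Ubxn6, which is also in the count table.

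Ung, which removes uracil from DNA, had 64.1, 51.1, 47.3 and 34.5 CPM in AGX51 libraries and 91.7, 76.1, 93.5 and 70.6 CPM in vehicle libraries. It was called, with no overlap between the groups (log2 fold change -0.69, SE 0.15, adjusted p = 0.00377). Fen1, the flap nuclease that trims Okazaki fragments, was at -0.56 (adjusted p = 0.0082), within the fold limit, and Lig1, the ligase that seals them, was at 0.24 (adjusted p = 0.11). Over 1909 of its exon bases, Fen1 lies opposite Gm10143. Clspn, the adaptor through which ATR activates CHK1, had 51.7, 44.6, 47.2 and 32.6 CPM in AGX51 libraries and 74.7, 49.6, 79.9 and 71.8 CPM in vehicle libraries. Its log2 fold change of -0.58 (SE 0.16, adjusted p = 0.0145) fell just short of the fold limit, and Clspn was called with the cultures as blocks in limma-voom.

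Neither E2F member was called. E2f1, an activator, had 34.4, 34.2, 29.7 and 29.4 CPM in AGX51 libraries and 35.6, 31.6, 32.2 and 29.5 CPM in vehicle libraries (log2 fold change 0.05, SE 0.11, adjusted p = 0.74). These groups lay over each other. E2f2, also an activator, had too few counts for the filter and was not tested, at 0.315, 0.465, 0 and 0.237 CPM in AGX51 libraries and 1.64, 1.92, 2.11 and 0.313 CPM in vehicle libraries. A count of 0 in AGX51 library 3 allows up to 0.403 CPM (3 counts, counting error only), and vehicle library 4 was as low as the AGX51 libraries. Without the filter, and in DESeq2, E2f2 was called lower.

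**Figure D4:**
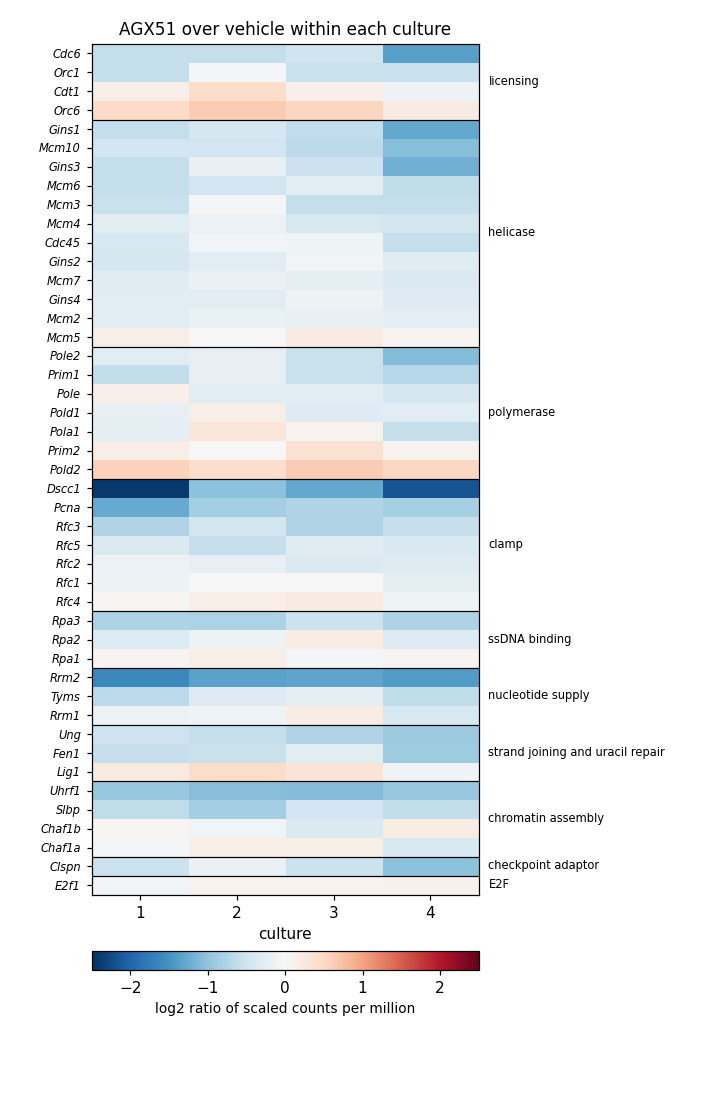
Log2 ratio of AGX51 over vehicle within each culture for the 45 tested members (scaled CPM plus 0.5), blue for lower with AGX51 and red for higher, with lines between the role groups. Rrm2, Uhrf1, Pcna and Dscc1 are blue in all 4 cultures, and culture 4 is the bluest for Cdc6, Gins1, Gins3 and Mcm10.

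Ratios of counts inside a library do not depend on how libraries are scaled, and they show the splits within complexes. The pairs were chosen after the values were seen, so the ratios are a description with no test. The ratio Rrm2 to Rrm1 was 0.106 to 0.158 in AGX51 libraries and 0.271 to 0.349 in vehicle libraries. The ratio Rpa3 to Rpa1 was 0.537 to 0.723 in AGX51 libraries and 1.02 to 1.18 in vehicle libraries. Rfc3 to Rfc4 was 0.231 to 0.291 in AGX51 libraries and 0.364 to 0.450 in vehicle libraries. In each of these the groups were apart, as they were for Prim1 to Prim2 (0.812 to 0.977 in AGX51 libraries, 1.00 to 1.67 in vehicle libraries) and for Pold1 to Pold2 (0.477 to 0.767 in AGX51 libraries, 0.833 to 1.15 in vehicle libraries). The groups were also apart for Dscc1 to Rfc4, Orc1 to Orc6 and Gins1 to Gins4. They overlapped for the other 4 of the 12 pairs: Rpa2 to Rpa1, Chaf1a to Chaf1b, Mcm4 to Mcm7 and Gins2 to Gins4. Mcm4 to Mcm7 was 0.768 to 0.8286 in AGX51 libraries and 0.793 to 0.885 in vehicle libraries, and Gins2 to Gins4 was 0.218 to 0.253 in AGX51 libraries and 0.213 to 0.256 in vehicle libraries.

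**Figure D5:**
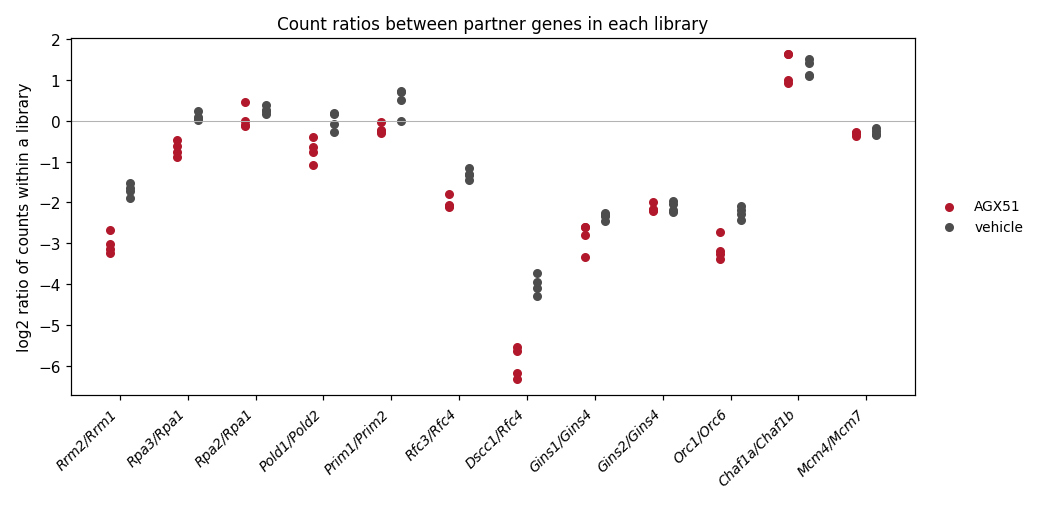
Log2 ratio of raw counts between partner genes in each library, AGX51 (red) left of vehicle (grey), for 12 pairs chosen after the values were seen. Rrm2/Rrm1, Rpa3/Rpa1, Rfc3/Rfc4 and Dscc1/Rfc4 are set apart between groups, and Mcm4/Mcm7, Gins2/Gins4 and Chaf1a/Chaf1b overlap.

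The rest of the pathway was read from lists that hold no member. Of 71 other replication and G1/S genes, all tested, 12 were called lower (16.9%) and 2 higher, where 9.93% and 8.57% of all tested genes were, with a median log2 fold change of -0.16. Without AGX51 library 2, 7 of them were called lower, where 9.08% of all tested genes were. Tk1, which salvages thymidine, had the largest fall, with 10.9, 8.60, 7.93 and 6.87 CPM in AGX51 libraries and 34.4, 30.5, 36.3 and 25.9 CPM in vehicle libraries (log2 fold change -1.82, SE 0.16, adjusted p = 9.99e-06). Tk1 shares exon bases with Afmid on the opposite strand, which is also in the count table. The same holds for other called genes of these lists, Chtf18 (with Gng13), E2f8 (Gm2788), Rnaseh2c (Kat5), Rbbp7 (Txlng) and Donson (Son). Tk1 was the 1 gene called among 9 others of nucleotide supply, as Rrm2 was the 1 of 3 members. Pole4 (-0.96) and Chtf18 (-0.67), a subunit of the loader to which DSCC1 also belongs, were lower among 8 other polymerase and clamp genes, at adjusted p of 0.00016 and 0.017. Chtf8, a further subunit of that loader, was at 0.04 (adjusted p = 0.88), and Pole3 was at 0.10 (adjusted p = 0.55).

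Among the regulators of E2F, calls went both ways. E2f7 and E2f8, E2F factors that act as repressors, had log2 fold changes of -1.14 (adjusted p = 0.0024) and -1.18 (adjusted p = 0.0060). Tfdp1, a dimer partner of E2F, was at -0.64 (adjusted p = 0.00081). Tfdp2, another dimer partner, went the other way at 0.58 (adjusted p = 0.0057), higher in 4 of 4 cultures. Tfdp2 was within the fold limit, and was called higher with the fibroblast covariate. Rbl1, which encodes the RB family member p107, had 14.7, 15.8, 14.2 and 12.4 CPM in AGX51 libraries and 4.71, 5.04, 6.34 and 5.63 CPM in vehicle libraries, a rise in 4 of 4 cultures (log2 fold change 1.46, SE 0.16, adjusted p = 5.41e-05). Of the 16 other RB and E2F genes, 3 were called lower (E2f7, E2f8 and Tfdp1) and Rbl1 was the 1 called higher. Skp2, the F-box protein that targets p27 (-0.94, adjusted p = 0.00094), was the 1 of 7 G1/S kinase genes called, and Ccna2 had the highest value of them at 0.44. The other calls were lower for Orc3 (-0.61), Donson (-0.77), Rnaseh2c (-0.59), Rtel1 (-0.60) and Rbbp7 (-0.65), and higher for the histone chaperone gene Asf1a (0.71), whose exons overlap Mcm9. The highest values of the lists without a higher call were 0.31 for Orc2, 0.13 for Atad5, 0.35 for Top1 and 0.09 for Shmt1.

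Genes of the later cell cycle were read for comparison. Of 30 genes of G2/M and mitosis, 2 were lower (Ndc80 at -0.94, Ccnb2 at -0.63) and 1 was higher (Prc1 at 0.83), and the median log2 fold change was 0.006. That is 6.67% of the list lower, where 9.93% of all tested genes were lower and 8.57% higher. The cultures differed: the list's median log2 ratio was 0.126, 0.021, -0.059 and -0.146 in cultures 1 to 4. In these, 12, 14, 19 and 25 of the 30 genes were lower. With the fibroblast covariate the median became 0.251, 3 were higher, and Ccnb2 was no longer called (-0.29, adjusted p = 0.197 in edgeR). Leaving out 1 library left 1 to 3 of them lower. Their summed level was 1757 to 2930 CPM in AGX51 libraries and 1915 to 2638 CPM in vehicle libraries. The 46 members together had 3588, 3276, 3188 and 2532 CPM in AGX51 libraries 1 to 4, against 4269, 3543, 4097 and 3547 CPM in vehicle libraries 1 to 4. The members' sum was lower in each culture, with AGX51 library 1 above vehicle libraries 2 and 4. The difference between the 2 lists was not tested.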

How the data were processed

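The authors sequenced poly(A)-primed, template-switched and tagmented libraries and deposited 1 table with a raw count per gene and library, made with the RNAsik pipeline on GRCm38. The submitters' processing notes name STAR, Salmon, featureCounts, edgeR and limma, without versions. The deposited CPM values are each count scaled to the listed genes' total, which was checked on the file. The deposited log2 fold change, log2 average expression and p-value columns hold the authors' own limma-voom comparison and were not used. Depth was 4303318 to 9586105 counts per library. The strand setting of the counting is not given in the sources used here, and 22 gene names that a spreadsheet had turned into dates were restored from gene IDs.

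In R 4.3.3, edgeR 4.0.16 was run on the counts of all 8 libraries with TMM scaling and the quasi-likelihood test after filterByExpr (at least 10 counts, and 15 in total), and Benjamini-Hochberg adjustment ran over 14428 genes, of which 45 were members. The study's thresholds, a fold above 1.5 and an adjusted p under 0.05, made a call. Other settings tried were scaling by RLE, by totals and by upper quartile, 2 other count filters, DESeq2 1.42.0, limma-voom (limma 3.58.1), culture as a block, other fold limits, equal depth, a covariate for fibroblast markers, and libraries or cultures left out. The labels give libraries of the same number one culture letter, and cultures came from separate mice, so numbers pair the libraries. After group means were removed, libraries of one culture correlated at 0.123 to 0.493 and others at -0.327 to 0.125. Promoter windows and chromosome positions came from RefSeq (GRCm38.p6) and GENCODE M21.

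The members and lists were chosen with earlier results of these data known. Genes named with values in every library are the called members, those whose call differs with culture blocks, limma-voom or DESeq2, and Mcm2 to Mcm7, Cdc6, Cdt1, Pcna, Pola1, Rrm1, Rrm2, Tyms and E2f1. Of the other lists, called genes and the highest and lowest values are named, and any other gene was chosen after its values were seen. Other testis cell markers were also read, beside 9.93% of all tested genes called lower and 8.57% higher. The log2 fold changes of 4 Sertoli cell markers were between -0.55 (Wt1) and -0.0037 (Rhox5), with none called. Of 3 Leydig and peritubular cell markers, 1 was higher (Star). Of 4 tested macrophage and endothelial markers, 1 was higher (Cd68) and 1 lower (Kdr). Of 9 differentiating and meiotic markers, 1 was lower (Dmc1). The Sertoli markers Amh, Gata4, Cldn11, Dhh and Fshr were not among the listed genes. Nor were the Leydig markers Cyp11a1, Cyp17a1, Hsd3b1, Insl3 and Lhcgr, or Csf1r, Adgre1 and Ptprc of the macrophage and endothelial list.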

Additional observations from a re-analysis of the deposited data

Results flagged for a closer look

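In 96 sets of 4 libraries (each member's CPM, the library total and the fibroblast marker mean, within each group), the highest or lowest library was compared with the nearest other, and 3 stood apart by Dixon's criterion, which chance meets in about 1 in 20 sets. Fen1 was at 57.1 CPM in AGX51 library 4, where the other AGX51 libraries held 91.6 to 95.97 CPM. Gins3 was at 13.1 CPM in vehicle library 2, where the other vehicle libraries held 17.3 to 18.2 CPM. Tyms was at 86.9 CPM in vehicle library 1, where the other vehicle libraries held 66.7 to 69.7 CPM.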

How the results depend on the processing

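With culture as a replicate block in edgeR, the same 12 members were called lower and no call of a member changed, and in limma-voom with the block 14 were called, with Clspn and Pole2 added. Of all tested genes, 11.3% were called lower with the block in edgeR and 11.1% with it in limma-voom. With the block in edgeR and no fold rule, a setting chosen after seeing the data, 27 members were lower and 2 higher. With the block in edgeR, 14 of the 71 other pathway genes were lower, with Dna2 and Mybl2 added, where 11.3% of all tested genes were. The same 12 members were also called with RLE scaling and with a filter of 1 CPM in 4 libraries, where 9.67% and 9.78% of all tested genes were lower. With upper quartile or total scaling, no filter, DESeq2, limma-voom or equal depth, 11 to 16 were called. The 16 came with upper quartile scaling and with library totals, where 11.6% and 12.1% of all tested genes were lower. In the other settings of that range, 8.57% to 9.9% of all tested genes were. With no fold rule, 21 members were lower and 2 higher, as were 22 and 4 of the other pathway genes, 2211 and 2190 of all genes, and 2 mitosis genes were higher. With a fold above 2, 3 members were lower, as were 3 other pathway genes (1 higher), 626 of all genes (486 higher) and 0 mitosis genes (0 higher). With the fibroblast covariate, 4 members were lower, 8 other pathway genes lower (Orc3, Chtf18, Rnaseh2c and Rtel1 lost) and 4 higher, and 1 mitosis gene lower and 3 higher. Of all tested genes, 9.09% were then lower and 8.28% higher. The covariate moved the median log2 fold change of the polymerase group to 0.055 and of the clamp group to -0.220, and 8 members that were not called, all within 0.200 of 0 without it, changed sign. The clamp median was -0.449 with upper quartile scaling, -0.471 with library totals and -0.330 without culture 2, against -0.395. With library totals alone 35.2% of all called genes were higher and with upper quartile scaling 38.1%, against 46.3% with TMM. Leaving out 1 library gave 7 to 15 members lower and 0 to 1 higher (Pold2, without vehicle replicate 2), 7 to 13 other pathway genes lower, 1 to 3 mitosis genes lower, and a clamp median of -0.482 to -0.268. Of all genes, 1172 to 1396 were then lower, against 1432 with every library in. The fewest members were left without vehicle replicate 1 (7) and AGX51 replicate 4 (9). Leaving out a culture gave 9 to 12 members lower, with 1 higher (Pold2) and 7 other pathway genes lower without culture 2, and 1 mitosis gene lower without culture 2, 3 or 4. Of all genes, 1009 to 1343 were lower with a culture left out. Over the 250 bases before the start alone, 12 members held an E2F core, against 20 in the whole window. The cause of these differences was not tested.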
